A study of Rattus norvegicus with 14 samples.

Results

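Neutrophils reach inflamed tissue along gradients of CXC chemokines, and 9 rat genes of this system were examined: the CXCR2 ligands Cxcl1, Cxcl2, Cxcl3, Cxcl6 and Ppbp, the related platelet chemokine Pf4, the receptors Cxcr1 and Cxcr2, and the growth factor Csf3. The members were chosen with earlier results of these data known. They were matched by gene name in a table of 26319 genes, and each name matched 1 gene. Of the 9 genes, 7 had enough reads for the test across all genes, whereas Ppbp and Cxcr1 did not. The samples were pieces of distal colon from male Wistar rats, taken 72 h after treatment. In 6 rats, colitis had been induced with 2,4,6-trinitrobenzene sulfonic acid (TNBS), a chemical instilled into the colon in a volume of 0.25 ml, and each of these rats gave 1 inflamed sample and 1 uninflamed sample from a region that did not border the lesion. The 2 control rats received no TNBS, and their samples came from random sections of the colon. They are described as vehicle-treated in the sample labels and as untreated in the publication. The rats were not genetically modified. TNBS colitis is an acute chemical injury of the epithelium, so that the inflamed group is a model of a lesion at 1 time point, and the uninflamed group is tissue of the same treated animals rather than of a healthy colon. The comparisons are abbreviated I-UI (inflamed minus uninflamed), I-C (inflamed minus control) and UI-C (uninflamed minus control), and they are not independent of each other, since each pair of them shares a group of libraries.

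The ligands Cxcl1, Cxcl2 and Cxcl3 are the rat counterparts of the human GRO chemokines, and Cxcl6 is the rat counterpart of human CXCL5 and CXCL6. They carry the ELR motif before the first cysteines, bind the G protein-coupled receptor CXCR2 on neutrophils and direct these cells from the blood into tissue. Epithelial cells, fibroblasts, endothelial cells and macrophages make them after stimulation by interleukin-1, tumor necrosis factor or bacterial products, largely through NF-κB. Ppbp encodes platelet basic protein, from which a CXCR2 ligand is cleaved, and Pf4 encodes platelet factor 4, which lacks the ELR motif and is stored in platelet granules. Csf3 encodes granulocyte colony-stimulating factor (G-CSF), which drives the production of neutrophils in bone marrow and their release.

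All 6 ligand genes lie in 1 cluster on chromosome 14, and the 2 receptor genes on chromosome 9 (RefSeq annotation, GRCr8). RefSeq promoter windows of 300 bases were at hand for Cxcl1, Cxcl2, Cxcl6, Ppbp, Cxcr1 and Cxcr2, 6 of the 9 members, while Cxcl3, Pf4 and Csf3 had none. The 120 bases before the annotated start are printed for 3 inducible ligands, for Ppbp and for Cxcr2, 5′ to 3′ along the gene, to set the inducible ligands beside a platelet ligand and the receptor. Capitals mark matches to the NF-κB consensus in Cxcl1, Cxcl2 and Cxcl6 and to TATAAA in Ppbp.
Cxcl1 (GRCr8 chr14:17479322-17479441, minus strand): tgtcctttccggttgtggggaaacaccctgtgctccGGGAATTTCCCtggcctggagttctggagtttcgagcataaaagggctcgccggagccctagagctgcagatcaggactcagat
Cxcl2 (GRCr8 chr14:17467256-17467375, minus strand): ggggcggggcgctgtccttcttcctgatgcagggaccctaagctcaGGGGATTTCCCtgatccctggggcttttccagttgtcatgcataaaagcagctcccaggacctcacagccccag
Cxcl6 (GRCr8 chr14:17596418-17596537, minus strand): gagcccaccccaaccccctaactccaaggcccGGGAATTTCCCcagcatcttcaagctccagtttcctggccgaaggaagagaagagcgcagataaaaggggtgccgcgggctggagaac
Ppbp (GRCr8 chr14:17587300-17587419, minus strand): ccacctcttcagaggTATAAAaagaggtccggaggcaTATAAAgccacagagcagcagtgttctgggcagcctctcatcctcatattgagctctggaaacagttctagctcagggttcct
Cxcr2 (GRCr8 chr9:83178525-83178644, plus strand): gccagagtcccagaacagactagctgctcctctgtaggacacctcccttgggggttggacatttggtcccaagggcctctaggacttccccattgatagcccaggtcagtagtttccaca

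The NF-κB consensus matched the windows of Cxcl1, Cxcl2 and Cxcl6, each at 2 positions that overlap by all but 1 base. The first of these matches spans positions -84 to -75 in Cxcl1, -74 to -65 in Cxcl2 and -88 to -79 in Cxcl6, counted back from -1, the last base before the start. Of 33469 RefSeq promoter windows of this length, 7.51% hold the consensus on either strand. A C/EBP motif (TTGCNNAA, in 10.6% of all windows) matched once in Cxcl2, at -217 to -210, and once in Cxcl6, at -190 to -183. A PU.1 motif (GAGGAA, in 27.6% of all windows) matched once in Cxcl2 and once in Ppbp. The letters TATAAA (in 14.2% of all windows) matched at 2 positions in Ppbp, -105 to -100 and -83 to -78. Near matches, such as cataaa in Cxcl1 and Cxcl2 and gataaa in Cxcl6, were not counted. An AP-1 motif (TGANTCA, in 7.33% of all windows) matched none of the 6 members. All motifs were searched on both strands, and none of the 5 motifs matched the windows of Cxcr1 or Cxcr2. None of these matches overlapped a match of a different motif. The motifs were chosen after the sequences had been seen, and a match states only that the letters occur in the window.

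The 14 libraries held 6734968 to 13792657 reads in inflamed, 7813797 to 13234808 in uninflamed and 12013023 to 12041314 in control samples. Levels are given as TMM-normalized CPM, read counts scaled to a common library size, and 3 reads, the smallest number taken as detection, correspond to 0.182 to 0.478 CPM. CPM values do not account for gene length, so levels are compared between samples and not between genes. A gene was called higher or lower when the quasi-likelihood test of edgeR gave a Benjamini-Hochberg adjusted p under 0.05 over the 18678 genes tested and a change of at least 2-fold. Log2 fold changes are given with their standard error (SE).

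In I-UI all 7 tested members were higher in the inflamed colon, from 4.23-fold for Pf4 to 156-fold for Cxcl2, and none was lower. Of these 7, Cxcl2, Cxcl3, Pf4 and Cxcr2 would also pass the filter on low counts without the inflamed libraries. The other 3, Cxcl1, Cxcl6 and Csf3, entered the test only through their reads in inflamed libraries, so the count of 7 is a description and their being higher is in part set by the filter. Over all genes tested, 6.15% were called higher and 6.95% lower, and the median log2 fold change was 0.04. For each of the 7 members every inflamed sample lay above every uninflamed sample, which held in this direction for 4.32% of all genes tested. For Cxcl1, Cxcl6 and Csf3 this separation is likewise in part set by the filter, and so are their ranks. Their fold changes rest on 31, 14 and 7 reads summed over all uninflamed libraries. Ranked by log2 fold change among the 18678 genes, Cxcl2 came 2nd, Csf3 13th, Cxcl1 17th, Cxcl6 18th, Cxcl3 36th, Cxcr2 75th and Pf4 361st.

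**Figure D1:**
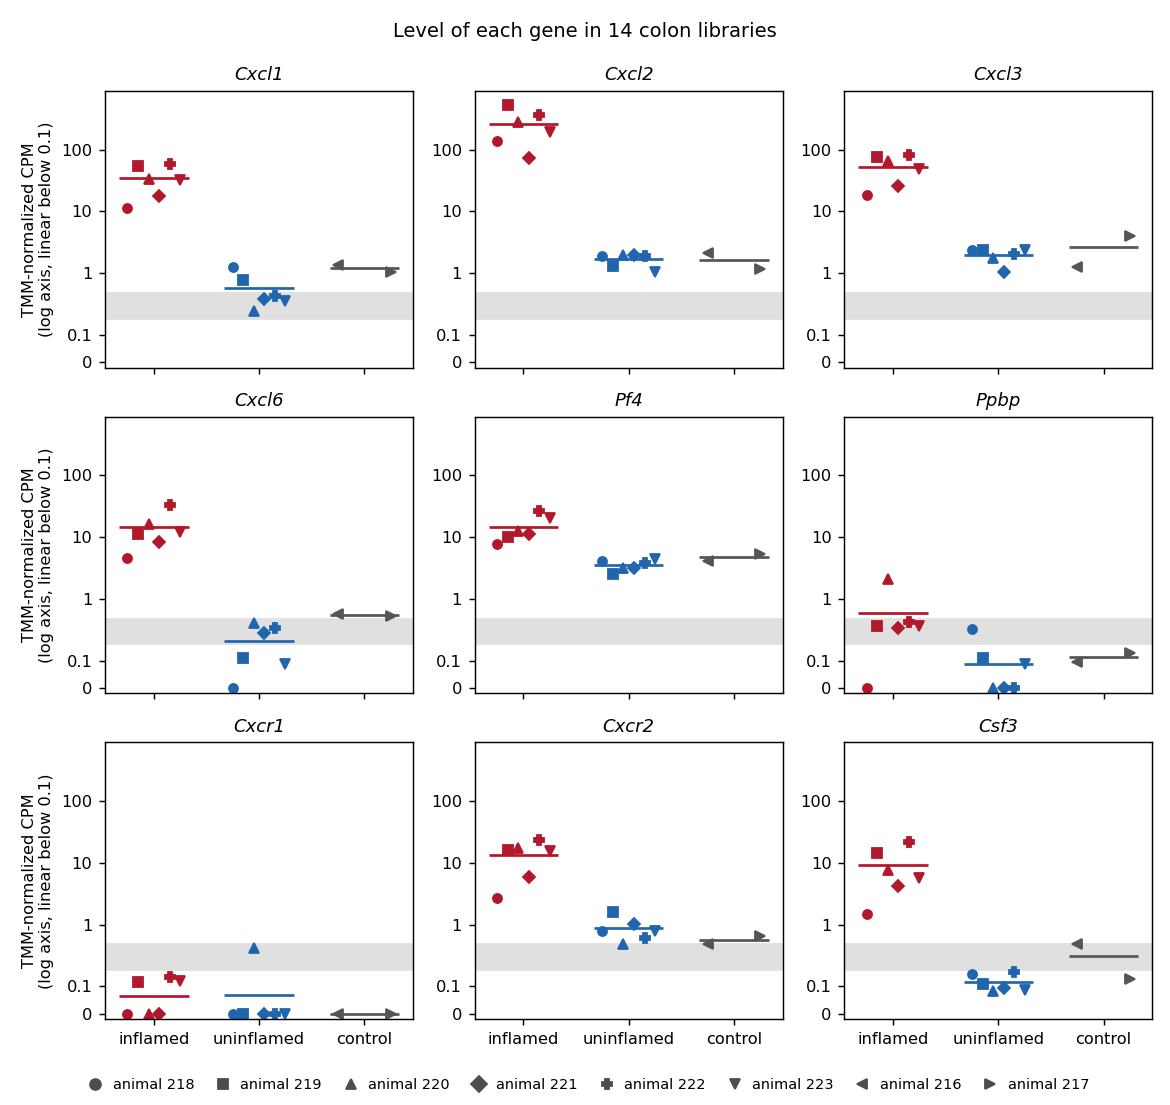
Level of each of the 9 genes in 14 colon libraries, in TMM-normalized CPM on a log axis that is linear below 0.1, by group, with symbols for the animals, lines for group means and a grey band for the CPM that 3 reads amount to (0.182 to 0.478). Inflamed samples lie above all uninflamed and control samples for Cxcl1, Cxcl2, Cxcl3, Cxcl6, Pf4, Cxcr2 and Csf3, whereas Ppbp and Cxcr1 stay mostly at or under the band.

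By point estimate, the largest increase among the ligands was that of Cxcl2, also known as MIP-2, a chemokine that activated macrophages and neutrophils themselves produce. Its lowest, median and highest levels were 73.8, 240.3 and 522 CPM in inflamed samples, against 1.05, 1.90 and 1.97 CPM in uninflamed samples, and 2.12 and 1.18 CPM in the controls. The lowest inflamed sample, that of animal 221, was thus far above the highest sample of either other group. Cxcl2 had a log2 fold change of 7.28 in I-UI (SE 0.49, adjusted p = 4.31e-06, edgeR) and 7.29 in I-C (SE 0.82, adjusted p = 0.00032, edgeR).

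Cxcl1, the rat chemokine first isolated as a cytokine-induced neutrophil chemoattractant, had 11.1, 32.7 and 58.6 CPM (lowest, median and highest) in inflamed samples, against 0.247, 0.402 and 1.27 CPM in uninflamed samples, and 1.35 and 1.05 CPM in the controls. The uninflamed values rest on 3 to 8 reads per library, and the control values on 14 and 8 reads. Inflamed samples did not overlap with the others, while the 2 control samples fell inside the range of the uninflamed ones or just above it. The log2 fold change was 6.01 in I-UI (SE 0.49, adjusted p = 1.8e-05, edgeR) and 4.82 in I-C (SE 0.74, adjusted p = 0.0012, edgeR).

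For Cxcl3, another GRO-type chemokine, the levels were 18.4, 56.2 and 80.6 CPM in inflamed samples, against 1.03, 2.21 and 2.39 CPM in uninflamed samples, and 1.25 and 3.94 CPM in the controls. Again no inflamed sample overlapped with the other groups. The 2 controls, in contrast, lay further apart from each other than the 6 uninflamed samples did. Cxcl3 had a log2 fold change of 4.72 in I-UI (SE 0.42, adjusted p = 2.86e-05, edgeR) and 4.36 in I-C (SE 0.67, adjusted p = 0.00129, edgeR).

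Cxcl6, which epithelial and stromal cells produce in rodents, had 4.66, 11.7 and 33.3 CPM in inflamed samples, against 0, 0.195 and 0.411 CPM in uninflamed samples, and 0.577 and 0.525 CPM in the controls. In uninflamed samples these levels correspond to 0 to 5 reads per library, so that Cxcl6 was at the limit of detection there. Inflamed samples lay apart from both other groups. For Cxcl6 the log2 fold change was 5.94 in I-UI (SE 0.56, adjusted p = 2.98e-05, edgeR) and 4.67 in I-C (SE 0.82, adjusted p = 0.00239, edgeR).

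The 2 platelet chemokines differed from these ligands in size or depth. Pf4 had 7.73, 12.1 and 26.9 CPM in inflamed samples, against 2.49, 3.48 and 4.36 CPM in uninflamed samples, and 4.13 and 5.38 CPM in the controls. Inflamed samples lay above all others, while control animal 216 fell inside the range of the uninflamed samples. The 95% interval of the I-UI fold change, 2.77 to 6.46, lay below the intervals of the other 6 tested members, the lowest of which began at 7.54 for Cxcr2. The log2 fold change of Pf4 was 2.08 in I-UI (SE 0.29, adjusted p = 0.000263, edgeR) and 1.65 in I-C (SE 0.43, adjusted p = 0.0173, edgeR). The I-C call for Pf4 rested on having both controls: the log2 fold change was 1.47 without animal 216 (adjusted p = 0.171, edgeR) and 1.83 without animal 217 (adjusted p = 0.0931, edgeR).

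Ppbp had 0, 3, 5, 6, 6 and 17 reads in the inflamed samples, against 0 to 2 reads in every uninflamed sample and 1 read in each control. The inflamed sample of animal 220 held 17 of these 37 reads (2.11 CPM), and that of animal 218 held none. The difference in mean log2 CPM was 1.22 in I-UI, and a two-sided exact permutation test over the libraries gave p = 0.0325, or 0.195 after Benjamini-Hochberg adjustment over 6 such tests. At this depth no difference in Ppbp was established. With the animals paired, an exact sign-flip test gave p = 0.125. An edgeR fit without the filter on low counts, chosen after the data had been seen, gave a log2 fold change of 2.87 (adjusted p = 0.0372, edgeR). The permutation test without animal 218, the only animal with less Ppbp in its inflamed sample, gave an adjusted p of 0.0476. The call thus depends on these choices.

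Among the receptors, Cxcr2, which binds all the ELR ligands and is carried mainly by neutrophils, was higher in the inflamed colon. Its levels were 2.75, 15.8 and 23.7 CPM in inflamed samples, against 0.493, 0.791 and 1.62 CPM in uninflamed samples, and 0.481 and 0.656 CPM in the controls. The lowest inflamed sample, that of animal 218, was the only one under 6 CPM and still exceeded every sample of the other groups. Cxcr2 had a log2 fold change of 3.94 in I-UI (SE 0.48, adjusted p = 0.000134, edgeR) and 4.57 in I-C (SE 0.83, adjusted p = 0.00283, edgeR). In bulk tissue, more cells that carry a transcript and more of that transcript per cell cannot be told apart, here and in all results that follow.

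Cxcr1, which binds fewer of the ligands in humans, was scarcely detected. The inflamed samples held 5 reads in all, spread over 3 libraries, against 5 reads in the uninflamed samples, all of them in that of animal 220, and 0 reads in both controls, which allows up to 0.288 and 0.394 CPM. A two-sided exact permutation test gave p = 1 for I-UI, and a difference in Cxcr1 was not detectable at this depth.

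Csf3 had 1.48, 6.64 and 22.1 CPM in inflamed samples, against 0.0822, 0.101 and 0.171 CPM in uninflamed samples, and 0.481 and 0.131 CPM in the controls. In uninflamed samples this was 1 or 2 reads per library, and in the controls 5 and 1 reads, while inflamed libraries held 14 to 312 reads. Inflamed samples thus lay apart from the others, although the size of the fold change is poorly bounded. It was 6.20 on the log2 scale in I-UI (SE 0.70, adjusted p = 8.22e-05, edgeR), with a 95% interval of 26.3-fold to 206-fold. In I-C it was 4.78 (SE 1.00, adjusted p = 0.00579, edgeR), and this call was lost without control animal 217 (log2 fold change 4.22, adjusted p = 0.0783, edgeR) and with limma-voom (4.32, adjusted p = 0.0698).

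In I-C, too, all 7 tested members were higher in the inflamed samples and lay apart from the controls. Over all genes tested, 5.93% were called higher and 7.79% lower in I-C, and 14% had inflamed samples all above both controls, of which only 2 were measured. The same 3 members, Cxcl1, Cxcl6 and Csf3, were tested only through their inflamed libraries here as well. Without control animal 216, 6 members were called, and without control animal 217, 5 members were called.

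In UI-C, 0 of the 7 tested members were called, as was 0.145% of all genes tested. No member had an unadjusted p under 0.05 in edgeR, against 8.89% of all genes tested, and DESeq2, limma-voom and exactTest of edgeR called 0 members as well. The log2 fold changes ran from -1.42 for Csf3 to 0.64 for Cxcr2. Their 95% intervals were wide: Cxcl1 had -1.19 with an interval of -2.70 to 0.33, and Cxcl2 had 0.00 with an interval of -1.39 to 1.40, so that changes of 2-fold were not excluded for either gene. Cxcl6 alone had separate groups, with 0 to 0.411 CPM in uninflamed samples against 0.577 and 0.525 CPM in the controls, a separation in this direction that 6.16% of all genes tested had.

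**Figure D2:**
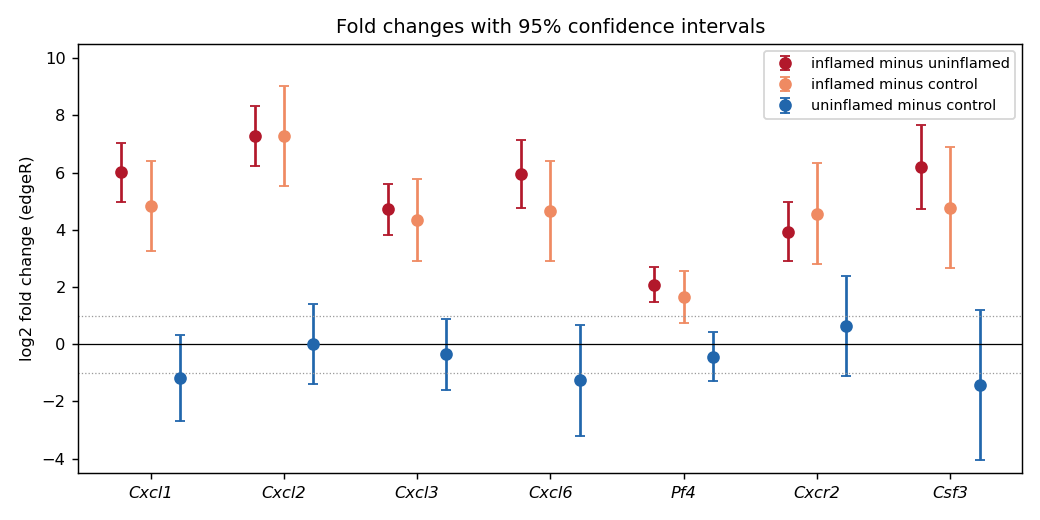
Log2 fold changes of the 7 tested genes from edgeR with 95% confidence intervals for I-UI, I-C and UI-C, with dotted lines at 2-fold. All intervals of I-UI and I-C lie above 0, with Pf4 nearest to it (2.08 and 1.65), and all intervals of UI-C include 0.

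Each of the 6 treated animals had more of each of the 7 tested members in its inflamed than in its uninflamed sample. The smallest of these differences in log2 CPM was 0.87, for Pf4 in animal 218, and the largest was 8.46, for Cxcl2 in animal 219. The inflamed samples differed in a similar order for most members. The sample of animal 222 was the highest for 6 of the 7 genes and that of animal 219 for Cxcl2, whereas the sample of animal 218 was the lowest for 6 of the 7 genes and that of animal 221 for Cxcl2. The spread among inflamed samples was widest for Csf3, whose highest level was 14.9 times the lowest, and narrowest for Pf4, with 3.48 times. For the remaining members this factor was 8.60 for Cxcr2, 7.15 for Cxcl6, 7.06 for Cxcl2, 5.27 for Cxcl1 and 4.38 for Cxcl3.

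Because Cxcl1, Cxcl2 and Cxcl3 are close relatives that bind the same receptor, the balance of their reads within each library was compared as well, a comparison chosen after the data had been seen. Cxcl2 gave 2.83 to 7.44 reads per read of Cxcl3 in inflamed samples, against 0.444 to 1.91 in uninflamed samples, and 1.69 and 0.300 in the controls. The inflamed and uninflamed ranges did not overlap, and the mean log2 ratio differed by 2.48 (two-sided exact permutation test over 6 and 6 libraries, p = 0.00216, the smallest that this design can give, adjusted p = 0.00649 over 3 ratios). The difference was also present with the animals paired (exact sign-flip test, adjusted p = 0.0469).

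Cxcl3 gave 1.38 to 1.95 reads per read of Cxcl1 in inflamed samples, against 1.88 to 7 in uninflamed samples, and 0.929 and 3.75 in the controls. The ratio was lower in inflamed samples by a mean log2 difference of -1.35 (exact permutation test, adjusted p = 0.00649), with an overlap at the uninflamed sample of animal 218 and a narrow range in inflamed tissue. For Cxcl2 to Cxcl1 the ratios were 4.19 to 12.3 in inflamed samples, against 1.5 to 8 in uninflamed samples, and 1.57 and 1.12 in the controls, and here the ranges overlapped. The log2 difference of 1.14 passed the exact permutation test (adjusted p = 0.0303), but not with the animals paired (exact sign-flip test, adjusted p = 0.0938), nor without animal 218 (exact permutation test, adjusted p = 0.111). The uninflamed ratios rest on 3 to 27 reads per gene and library. Reads that fit up to 10 places were kept in the counts, and whether these related genes shared reads, and with what effect on the ratios, was not tested.

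**Figure D3:**
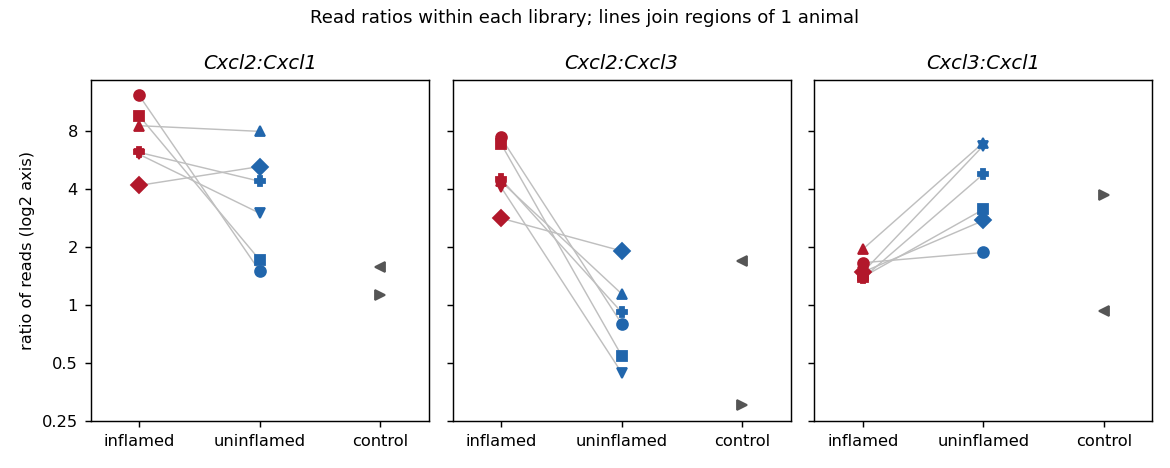
Ratio of reads between Cxcl1, Cxcl2 and Cxcl3 within each library, on a log2 axis, by group, with grey lines joining the inflamed and uninflamed samples of 1 animal. Cxcl2 to Cxcl3 separates inflamed (2.83 to 7.44) from uninflamed samples (0.444 to 1.91), Cxcl3 to Cxcl1 is lower and less spread in inflamed samples (1.38 to 1.95), and Cxcl2 to Cxcl1 overlaps.

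The genes that flank the ligands on chromosome 14 were examined to see whether they moved with them, a choice made after the data had been seen. In RefSeq order these are Btc, Areg, Ereg, Epgn and Mthfd2l on the side of Cxcl2, and Rassf6, Albfm1, Afm, Afp and Alb on the side of Cxcl6. Ereg, the EGF receptor ligand epiregulin, was higher in inflamed samples (14.9 ± 6.57 CPM) than in uninflamed samples (3.37 ± 1.16 CPM, SD, n = 6 each), with a log2 fold change of 2.12 in I-UI (adjusted p = 0.00132, edgeR). Rassf6, a protein of the RASSF family of Ras-association domain proteins, was lower, with 13 ± 9.72 CPM in inflamed and 56.7 ± 19.4 CPM in uninflamed samples (log2 fold change -2.12, adjusted p = 0.00142, edgeR). Btc, Areg, Epgn, Afm, Afp and Alb were not called, and Albfm1 and the locus between Cxcl1 and Cxcl3 were not analysed here. Mthfd2l, a mitochondrial enzyme of folate metabolism next to Cxcl2, was called higher (log2 fold change 4.50, adjusted p = 0.0181, edgeR), but this rested on the inflamed library of animal 223 with 1139.6 CPM, while the other 5 inflamed samples had 11.1 to 15.5 CPM. Without that animal the log2 fold change of Mthfd2l was 0.63 and below the 2-fold threshold, and those of Ereg and Rassf6 were 2.30 and -2.01. None of these genes was called in I-C by edgeR. There, Ereg had 1.33 (adjusted p = 0.122, edgeR), Rassf6 -0.97 (adjusted p = 0.212, edgeR) and Mthfd2l 4.30 (adjusted p = 0.175, edgeR). The control means, 5.87 CPM for Ereg and 25.7 CPM for Rassf6, lay between those of the inflamed and uninflamed samples.

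**Figure D4:**
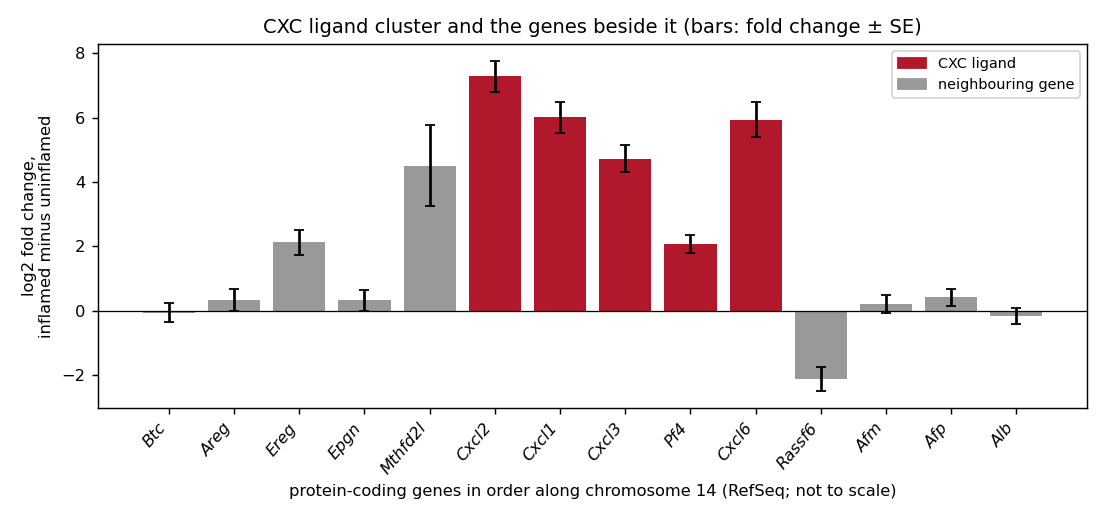
Log2 fold change in I-UI (bars, ± SE) of the tested protein-coding genes along chromosome 14, in RefSeq order and not to scale, for CXC ligands (red) and neighbouring genes (grey). The ligands reach 2.08 to 7.28, while of the neighbours only Ereg (2.12), Rassf6 (-2.12) and Mthfd2l (4.50, 1 library) were called, and Ppbp is not drawn because it was below the filter.

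Genes whose profile over the 14 libraries was most like that of a member were found by the root mean square difference of centred log2 CPM, among 14615 genes. Cxcl2 was nearest to S100a9 and S100a8, the subunits of the neutrophil protein calprotectin, and to Nos2, the inducible nitric oxide synthase, with distances of 0.47, 0.66 and 0.50. The table holds a further gene written NOS2, and this one was among the 3 nearest to Cxcl1 (0.61), Cxcl3 (0.53) and Csf3 (0.64). Clec4e, which encodes the myeloid receptor Mincle, was among the 3 nearest to Cxcl1 (0.68), Cxcl3 (0.45), Cxcr2 (0.47) and Csf3 (0.64). Cxcl3 was nearest to Trem1 (0.44), an amplifying receptor of neutrophils and monocytes, and Cxcl1 and Csf3 shared Ptx3 (0.70 and 0.56), the soluble pattern recognition molecule pentraxin 3. Cxcr2 was nearest to Csf3r (0.45), the receptor of G-CSF, followed by the transcription factor Nfe2 (0.46). Cxcl6 was nearest to Osm (0.56), which encodes oncostatin M, and then to Il1b and the neutrophil collagenase Mmp8 (both 0.77). Pf4 had another set of neighbours, Rai14 (0.30), Cyp7b1 (0.34) and Rab20 (0.37). Among the members themselves the closest pair was Cxcl1 and Csf3 (0.62) and the most distant Cxcl2 and Pf4 (2.63). The values were centred but not scaled, so a difference in the size of the fold change adds to the distance. Log2 CPM also used a prior count of 2, which shrinks the differences of genes with few reads. In uninflamed samples Csf3 had 1 to 2 and Cxcl6 0 to 5 reads per library, so their distances rest partly on this floor. These distances are descriptions over libraries that share the same 3 groups.

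Of 18 genes that induce CXC chemokines or control their transcripts, 17 were tested. In I-UI, 11 were higher and 1 lower, with a median log2 fold change of 2.02. Over all genes tested, 6.15% were called higher and 6.95% lower. Il1b, which encodes interleukin-1β, had 281 ± 161 CPM in inflamed and 9.38 ± 3.52 CPM in uninflamed samples (SD, n = 6 each), with a log2 fold change of 4.90 (adjusted p = 3.8e-05, edgeR). Nfkbiz, an NF-κB cofactor needed for a subset of inducible genes, had 112 ± 42.9 CPM in inflamed and 23.9 ± 5.85 CPM in uninflamed samples (log2 fold change 2.22, adjusted p = 0.000108, edgeR). Il1a (3.89), Il6 (3.29), Cebpb (2.78), Il1r1 (2.34) and Tnf (2.02) were also higher by log2 fold change. So were Zfp36 (2.58) and Zc3h12a (1.23), listed as genes that control transcripts, so the 11 higher genes are not all inducers. The interleukin-17 receptor subunits were called in opposite directions, Il17ra higher (1.38) and Il17rc lower (-1.54), while Il17a was below the filter. The NF-κB subunit Rela was not called (0.02). Nor was the subunit Nfkb1, which was higher but below the 2-fold threshold (0.78, adjusted p = 0.00375, edgeR).

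Few of the remaining CXC chemokines and receptors were called in I-UI, where all genes tested gave 6.15% higher and 6.95% lower. Of 12 tested, only Cxcr4, the receptor of Cxcl12, was higher (log2 fold change 2.09, adjusted p = 0.00208, edgeR) and only Cxcl11, a ligand of CXCR3 on T cells, was lower (-1.98, adjusted p = 0.00693, edgeR), with a median of -0.32. The call of Cxcl11 was lost without animal 223 (-1.54, adjusted p = 0.0505, edgeR), and 2 genes were lower without animal 218 or 221. In I-C, Cxcr4 was again higher (3.84), Cxcl11 was not called (-0.38), and the lower one was Cxcl14 (-2.77, adjusted p = 0.0054, edgeR), a chemokine of epithelia. In I-UI the CXCR3 ligands Cxcl9 (-0.85) and Cxcl10 (-0.36) were not called.

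Downstream of CXCR2, 17 signaling genes were tested, of which 7 were higher and 1 lower in I-UI, with a median log2 fold change of 0.77. All genes tested gave 6.15% higher and 6.95% lower. The Src family kinase Fgr had the smallest adjusted p (log2 fold change 2.36, adjusted p = 0.000106, edgeR), followed by Pik3r5, the regulatory subunit of phosphoinositide 3-kinase gamma (1.52, adjusted p = 0.000414, edgeR). Arrb2, which encodes a β-arrestin that binds activated chemokine receptors, was higher as well (1.36), whereas the phospholipase Plcb3 was lower (-1.19). Of 8 tested colony-stimulating factor and receptor genes, 3 were higher and 1 was lower, with a median of 0.55. These were Csf3r (3.76, adjusted p = 8.36e-05, edgeR), Csf2rb (2.84, adjusted p = 0.000423, edgeR) and Csf2ra (1.64), against Il34 (-1.16), a ligand of the macrophage receptor Csf1r. Csf2 and Il3 were below the filter.

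Markers of several cell types also differed in I-UI, where 6.15% of all genes tested were called higher and 6.95% lower. Of 21 tested neutrophil markers, 18 were higher and none was lower in I-UI, with a median log2 fold change of 2.37. Their summed level was 648 to 2835 CPM in inflamed samples, against 88.0 to 170 CPM in uninflamed samples, and 90.0 to 104 CPM in the controls, so inflamed samples did not overlap with the others. Elane had no read in any uninflamed sample, and Fpr1 none in the controls. Fpr1 averaged 0.0554 CPM in uninflamed samples, so its call rests on reads in inflamed samples. The smallest adjusted p values in this list were those of S100a9, with a log2 fold change of 6.50 (adjusted p = 1.74e-05, edgeR), and Trem1, with 4.28 (adjusted p = 3.8e-05, edgeR), while the largest fold change was that of S100a8 (6.63). Genes that neutrophils express mainly as precursors in bone marrow were at low levels: of 4 tested, Ngp (1.39) and Camp (1.28) were higher and Mpo (0.38) and Ltf (0.62) were not called, while Elane, Prtn3 and Ctsg were below the filter. Neither Ngp nor Camp was called without animal 219, and Camp was not called without animal 222 or 223 either. Both genes are also counted among the 18 higher neutrophil markers. The part of neutrophil number in the levels of the members was not tested.

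The read ratio of Cxcr2 to Csf3r, both carried by neutrophils, had a median of 0.187 in inflamed samples (range 0.156 to 0.249), against 0.182 in uninflamed samples (0.0923 to 0.375) and 0.138 over the controls (0.125 to 0.152). The ranges of the ratio overlapped. The uninflamed ratios rest on 5 to 15 Cxcr2 reads per library and the control ratios on 5 each. At this depth the ratio is poorly bounded, and a difference between the groups could go unseen. The ratio is given as a description without a test.

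Next to Pf4 and Ppbp, platelet and megakaryocyte markers were examined. Beside 6.15% of all genes tested called higher in I-UI, 2 of the 11 tested markers were higher and none lower. Their median log2 fold change was 0.57. The higher ones were Thbs1 (3.53, adjusted p = 6.76e-05, edgeR), which encodes thrombospondin 1 and is also made by fibroblasts and macrophages, and Gfi1b (2.45, adjusted p = 0.0413, edgeR). The call of Gfi1b rested on the inflamed sample of animal 219 with 109.6 CPM, while the other 5 inflamed samples had 4.13 to 9.92 CPM, and without that animal its log2 fold change was 0.72 (adjusted p = 0.095, edgeR). Thbs1 averaged 659 ± 323 CPM in inflamed and 56.9 ± 12.5 CPM in uninflamed samples (SD, n = 6 each), within a summed level of the list of 189 to 1070.1 CPM in inflamed samples, against 101.7 to 166 CPM in uninflamed samples, and 78.1 to 99.5 CPM in the controls. Itga2b, the defining integrin of platelets, was not called (0.03), nor was Itgb3 (0.57), and Gp9 and Gp1ba were below the filter. Among erythrocyte markers, 2 of 5 tested were higher, the hemoglobin genes Hbb (2.04) and Hba1 (2.51), and their median was 0.83. The summed level of the erythrocyte list was 37.5 to 255 CPM in inflamed samples, against 24.6 to 37.1 CPM in uninflamed samples, and 36.0 to 46.2 CPM in the controls. The part of blood cells in the level of Pf4 was not tested.

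The other marker lists held genes called in 1 direction each in I-UI, beside genes that were not called. The shares over all genes tested were 6.15% higher and 6.95% lower. Of 11 tested macrophage and monocyte markers, Fcgr1a (2.34) and Cd68 (2.11) were higher and none was lower, with a median of 0.59 and a summed level of 397 to 716 CPM in inflamed samples, against 259 to 496 CPM in uninflamed samples, and 213 to 221 CPM in the controls. Fibroblast markers were higher in 5 of 9 (median 1.28), led by Pdpn (1.96) and Pdgfrb (1.5), and endothelial markers in 4 of 11 (median 0.96), among them Kdr (1.13) and Icam1 (1.34), an adhesion molecule that neutrophils bind. The summed level of the fibroblast markers was 2552 to 9221 CPM in inflamed samples, against 1554 to 5149.7 CPM in uninflamed samples, and 1672 to 1811 CPM in the controls, and that of the endothelial markers was 192 to 356 CPM in inflamed samples, against 107 to 172 CPM in uninflamed samples, and 98.3 to 119 CPM in the controls. Epithelial markers were lower in 14 of 15, with a median of -2.21, and Cdx1 (-2.19) and Fabp2 (-2.56) had the smallest adjusted p. Smooth muscle markers were lower in 5 of 8 (median -1.21), with Synpo2 (-1.46) and Tagln (-1.4) as examples. These counts moved when single animals were left out, to 8 epithelial markers without animal 223 and 9 without animal 218, 219 or 222, to 3 fibroblast markers without animal 220, 222 or 223, and to 3 smooth muscle markers without any 1 animal other than 218. Endothelial markers numbered 3 to 6. Their summed levels were 184 to 4514 CPM for epithelium and 1105 to 3973 CPM for smooth muscle in inflamed samples, against 4258 to 7985 CPM and 3529.6 to 10583 CPM in uninflamed samples, and 4444 to 8479.6 CPM and 4855 to 5480.2 CPM in the controls. In UI-C, no marker of any list was called. The part of tissue composition in the changes of the members was not tested.

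**Figure D5:**
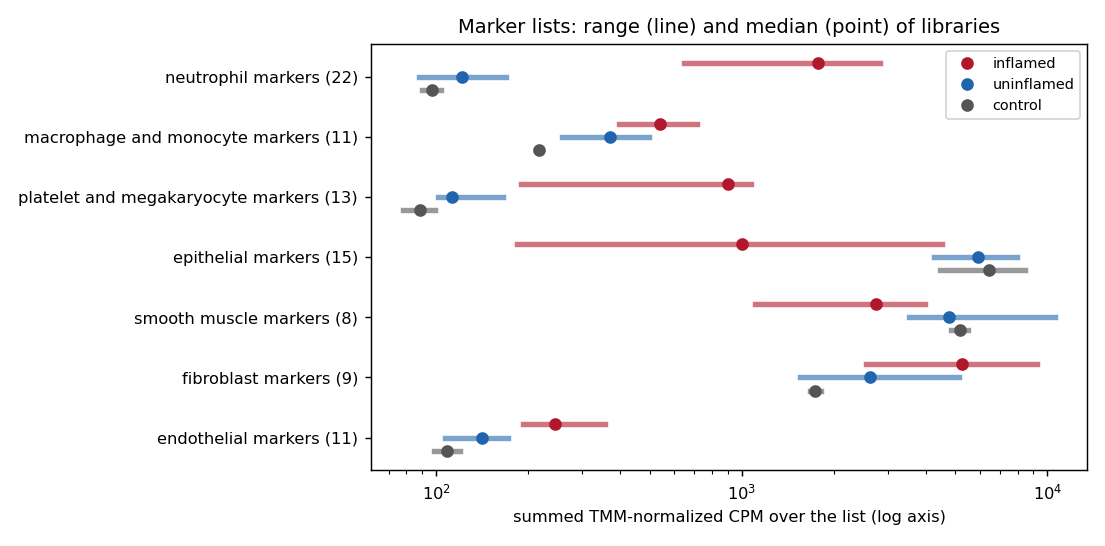
Summed TMM-normalized CPM of 7 marker lists (number of genes in brackets) on a log axis, with lines for the range and points for the median of inflamed, uninflamed and control libraries. Neutrophil markers are separate between inflamed (648 to 2835) and uninflamed samples (88.0 to 170), and epithelial markers are lower in most inflamed samples (184 to 4514 against 4258 to 7985).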

How the data were processed

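Total RNA of 14 rat colon samples was depleted of ribosomal RNA and sequenced in reads of 50 bases. The authors mapped the reads to the rat genome with Ensembl release 77 in CLC Genomics Workbench 7.5.1 (at most 2 mismatches, length and similarity fractions of 0.8, up to 10 places per read), removed reads on ribosomal RNA genes and deposited whole-number read counts per gene, which they had not normalized. Of 26319 genes, 979 had no read. No source used here states whether counting used strand. Depth limits genes with few reads, and statements on single reads cover counting error only.

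Counts were analysed in R 4.3.3 with edgeR 4.0.16 (TMM factors, filterByExpr with a minimum count of 10, robust quasi-likelihood fit, 14 libraries, 1 coefficient per group) with Benjamini-Hochberg adjustment. The filter is blind to the groups' direction but passes a gene that is high in 1 group only. The SE is the log2 fold change divided by the root of the F statistic. Log2 CPM used a prior count of 2. Genes below the filter and read ratios were tested with two-sided exact permutation tests. Scripts were tested on simulated data.

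The members and the 13 gene lists were chosen with earlier results of these data known. Of 170 list symbols, 157 matched by symbol and 3 by synonym, and 9 did not match. Named beside the members were in each list the 2 non-members that ranked first by I-UI adjusted p, and the 3 nearest genes of each member with a mean log2 CPM of at least 0. Further list genes were named after their values were seen.

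Inflamed and uninflamed samples were paired by animal number in the labels. Same-animal deviations from the group means correlated with r = -0.12 to 0.18, and 4 of 6 samples correlated best with their own animal. Libraries of 1 group differed by more than sampling noise (chi-square per degree of freedom 28.6 to 189), so none was counted as a duplicate. The p-values of I-C and UI-C rest on 2 control animals.

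Alternatives were RLE and upper-quartile factors, no filter, a minimum count of 30, DESeq2 1.42.0, limma-voom (limma 3.58.1), exactTest, fits of 2 groups, no fold threshold, the animal as a block, and leaving out each animal. Promoter sequences and gene order are from RefSeq (GRCr8), a later build than the one the reads were mapped to.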

Additional observations from a re-analysis of the deposited data

Results flagged for a closer look

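The levels of the 9 members and of their neighbours on chromosome 14 were screened for a sample far from the rest of its group, in 36 groups of 6 samples. The screen used Dixon's critical value, which about 1 in 20 groups would pass by chance if their values were normally distributed. Levels in CPM need not be, least of all for genes with few reads, so that rate is no yardstick here. In 7 groups the highest sample stood apart by more than the critical value, and these groups are listed as a description.

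Of these, 3 concern members. Ppbp in the inflamed sample of animal 220 had 2.11 CPM, from 17 reads. Ppbp in the uninflamed sample of animal 218 had 0.319 CPM, from 2 reads. Cxcr1 in the uninflamed sample of animal 220 had 0.411 CPM, from 5 reads, with 0 reads in all other uninflamed samples. No tested member had such a sample.

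The other 4 concern neighbouring genes. Mthfd2l had 1139.6 CPM (18765 reads) in the inflamed sample of animal 223, against at most 15.5 CPM in the other inflamed samples. Rassf6 had 32.4 CPM in the inflamed sample of animal 221, Epgn had 1.51 CPM in the uninflamed sample of animal 219, and Afm had 5.00 CPM in the inflamed sample of animal 219.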

How the results depend on the processing

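Over the alternatives run, 375 fold changes of members were recomputed, of which 370 kept their side of the threshold, 5 fell below it and 0 called ones reversed. The count of members called in I-UI was 7 in every alternative, including the fit with the animal as a replicate block. In I-C it was 5 to 7 when each animal was left out, and 6 with limma-voom, with and without the animal as a block (Csf3, adjusted p = 0.0698 and 0.0699, limma-voom). The other values lost were those of Csf3 and Pf4 without single controls. In UI-C the count was 0 throughout, but Cxcl1, Cxcl6 and Csf3 were below the filter and not tested in the fit of 2 groups. The block changed no other call of a member. Without animal 218, 1 member reached an unadjusted p under 0.05 in UI-C. The number of members below the filter that passed their test was 0, and 1 (Ppbp) with edgeR without a filter. It was 0 to 1 when each animal was left out, with the 1 in the absence of animal 218.

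Leaving out a control leaves 1 library in that group, which is then assumed to vary like the others. Over all genes, the 2562 called in I-C became 1096 without control 216 and 919 without control 217, and the 27 called in UI-C became 151 with DESeq2, 176 with exactTest and 6 with limma-voom. Without a filter, 10 epithelial markers were lower in I-UI instead of 14 and 6 in I-C instead of 10, 4 smooth muscle markers were lower in I-UI instead of 5, 1 platelet marker was higher in I-UI instead of 2, and 1 erythrocyte marker was higher in I-C instead of 2. The list counts with single animals left out were added after the data had been seen. Leaving out animal 219, 222 or 223 also lost the call of the Cxcl2 to Cxcl1 ratio (exact permutation test, adjusted p = 0.103, 0.0556 and 0.0714). Reads of 0 to 8 per library limit Cxcl1, Cxcl6, Ppbp, Cxcr1 and Csf3 in uninflamed tissue, and transcript lengths were not used here.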
